A study of Mus musculus with 6 samples.

Results

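Transcripts of 10 genes for stretch and LIM stress sensors of the cardiac Z-disc were followed in the hearts of mice given Ang II alone and mice given Ang II and tectochrysin (Tec), a plant flavone. The genes were Fhl1, Fhl2, Csrp3, Ankrd1, Ankrd2, Ankrd23, Xirp1, Xirp2, Flnc and Myoz2, found by symbol among the 30914 genes of the deposited table. They were chosen by symbol with the FPKM of these same 6 libraries, and results computed from them, already known. Their differences between the groups are therefore given as a description, with no test. All mice were male C57BL/6J of wild-type genotype, 8 weeks old, and carried an osmotic pump that delivered Ang II (1 μg/kg/min) for 4 weeks. The Ang II group had 3 mice. The Ang II + Tec group had 3 mice that also received Tec at 5 mg/kg during the last 2 weeks. Both groups carry Ang II, so the comparison addresses what Tec adds to it, and a saline group was not analysed here.

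The Z-disc is the boundary of the sarcomere, where actin filaments of neighbouring sarcomeres are crosslinked by alpha-actinin and the end of titin is anchored. Proteins held there or along titin can report mechanical load, because several of them move between the sarcomere and the nucleus and act on transcription. LIM domains are zinc-binding modules through which proteins such as Fhl1, Fhl2 and Csrp3 bind their partners. In the heart, Ankrd1 is known as a gene induced by overload, and variants in FHL1, CSRP3, FLNC and other genes of the set are known in human muscle or heart disease.

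All 10 genes passed the filter on low values, which kept genes with 3 or more libraries at 0.5 FPKM or above. FPKM are fragments relative to transcript length and to the total of mapped fragments, a scale per length on which genes can be set beside each other. Fhl2 differed most clearly between the groups, with a mean of 978 ± 114 FPKM (SD, n = 3) with Ang II and 549.9 ± 70.0 with Ang II + Tec, a ratio of 1.78. It was the 1 member whose groups did not overlap. Among all 13089 genes tested, 18.9% did not overlap and were lower with Tec, and 2.9% did not overlap and were higher. In the limma fit over all genes, 21 genes (0.16%) were called, which required both an adjusted p under 0.05 and a log2 fold change of size 1 or more, and 0 of the 10 members were among them. Nothing is read from this count or from the overlap of the members, since they were chosen with the comparison known.

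The members' log2 fold changes had a median of −0.30, and 8 of 10 were negative. Over all genes tested the median was −0.17 and 80.0% were negative. Median-of-ratios scaling, which evens out the typical gene between libraries, moved the median of all genes by 0.168, to 0.002, and that of the members to −0.063, with 5 of 10 negative. A mean below that of the Ang II group was thus the common state of genes on the deposited scale.

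**Figure D1:**
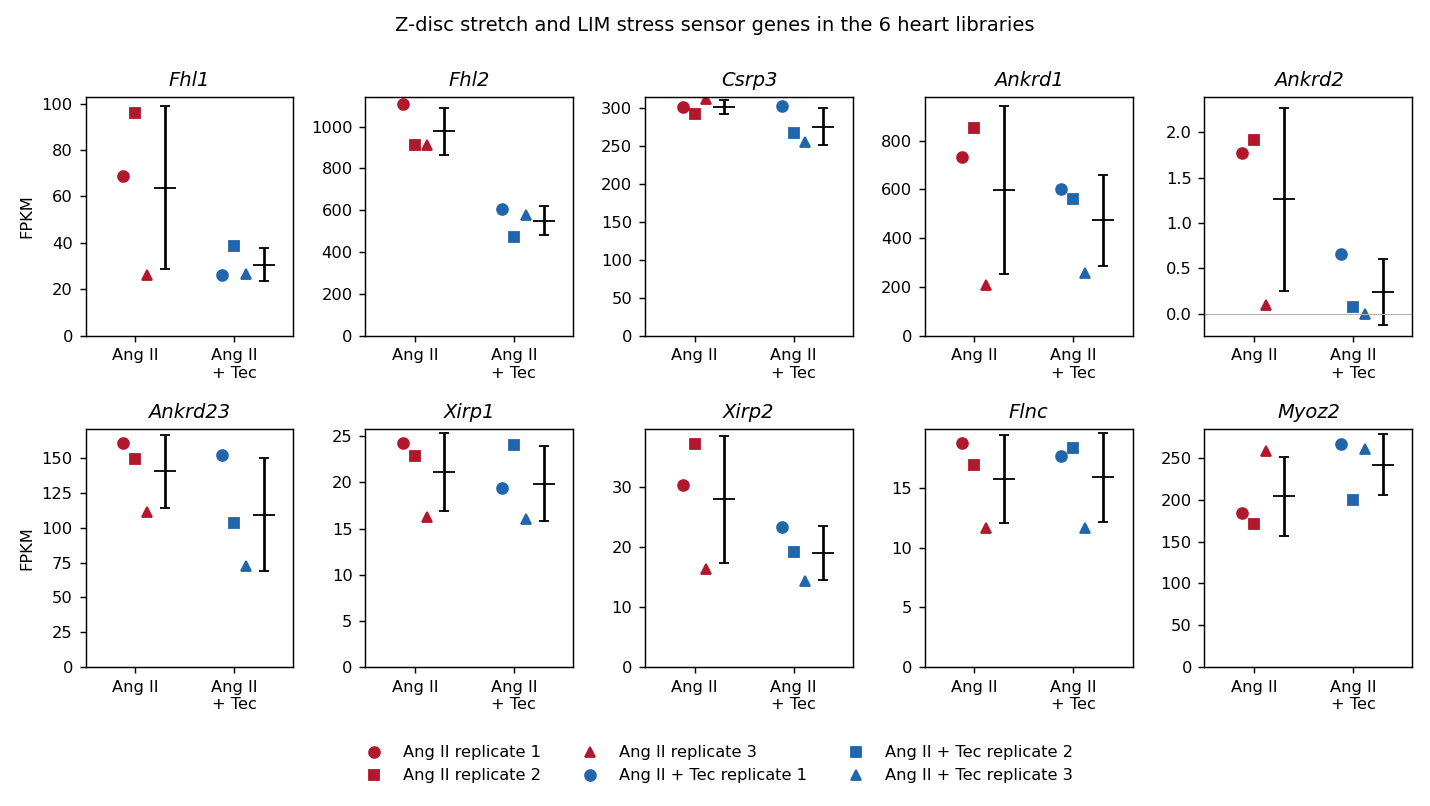
FPKM of each of the 10 genes in the 3 Ang II and 3 Ang II + Tec libraries, 1 panel per gene with its own linear axis; symbols mark the replicate and the black bar is the mean ± SD. The 3 Fhl2 values with Tec (470.7 to 603.7) lie below the 3 without (911.1 to 1109.4), while the groups overlap in the other 9 panels.

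For Fhl2 and Csrp3 the 250 bases before a RefSeq start are shown (GRCm38.p6). Of the LIM genes of the set, Fhl2 was the 1 whose groups did not overlap, and Csrp3 was the most even. Both were picked with their values known, and no link between motifs and values was tested. Both windows lie on the minus strand and hold no base of an annotated exon of their gene in GENCODE M21. The Fhl2 window ends at a start inside the gene, 33023 bases from the outermost start, and FPKM per gene cannot tell which start is used. Capitals mark a CArG box, the motif bound by serum response factor.

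Fhl2, chr1:43163962-43164211: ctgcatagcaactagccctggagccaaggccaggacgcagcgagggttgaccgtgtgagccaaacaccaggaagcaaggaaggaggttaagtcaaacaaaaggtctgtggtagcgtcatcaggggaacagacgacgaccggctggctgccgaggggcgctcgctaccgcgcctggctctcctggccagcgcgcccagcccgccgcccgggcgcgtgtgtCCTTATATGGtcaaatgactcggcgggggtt
Csrp3, chr7:48848052-48848301: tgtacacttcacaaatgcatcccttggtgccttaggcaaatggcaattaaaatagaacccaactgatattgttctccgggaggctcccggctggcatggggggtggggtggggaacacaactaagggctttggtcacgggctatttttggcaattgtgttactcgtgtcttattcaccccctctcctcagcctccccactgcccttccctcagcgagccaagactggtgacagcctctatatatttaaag

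Windows of 300 bases, 250 before and 50 from a RefSeq start, were listed for 9 of the 10 members (14 windows) and searched on both strands. The CArG box occurred at −31 to −22 in the Fhl2 window shown and at −96 to −87 before its outer start, counting the start as 0. It also occurred before one start of Fhl1, and in 1.63% of all 32851 promoters. The MCAT element, CATTCC, to which TEAD factors bind, occurred in 5 of the 14 windows (Ankrd1, Ankrd23 and Flnc) and in 14.7% of all promoters. In Ankrd1 it occurred at −210 to −205 and at −123 to −118. Both Flnc windows hold the same site, and an Ankrd23 match lies after the start, at 36 to 41. Exons of the gene in GENCODE M21 cover all 250 bases before the start in Ankrd1 and in an Ankrd23 window, and 223 before the outer Fhl2 start. They cover 87 in the Fhl1 window with the CArG box and 28 in Myoz2. The MEF2 box occurred in 3 of the 14 windows (Fhl2, Myoz2 and Xirp2) and in 3.19% of all promoters. None of these 3 motifs was found in the Csrp3 or Ankrd2 windows. The matches describe the letters of these windows only.

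The LIM-only proteins formed the first group. Fhl2, a cofactor of transcription factors that also sits at the Z-disc and the titin N2B region, is at chr1:43123074-43196984 on the minus strand (ENSMUSG00000008136). Its FPKM were 1109.4, 911.1 and 912.3 with Ang II and 603.7, 470.7 and 575.2 with Ang II + Tec. The lowest Ang II library was thus well above the highest Tec library, and the spread within each group was small, with a coefficient of variation of 11.7% and 12.7%. The fitted log2 fold change of FPKM + 1 was −0.83 (SE 0.15). Without any 1 library it lay between −0.90 and −0.72, and under the scaling to the median of ratios it was −0.60. The groups did not overlap under any of the 4 other scalings tried. Among the 330 tested genes with a mean of at least 100 FPKM, Fhl2 had the 19th lowest log2 fold change, and 24.5% of those genes did not overlap and were lower with Tec.

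Fhl1, which holds titin and signalling enzymes together at the sarcomere, is at chrX:56731787-56793346 on the plus strand (ENSMUSG00000023092). It read 68.9, 96.2 and 26.3 FPKM with Ang II and 26.2, 38.7 and 26.6 with Tec. Ang II replicates 1 and 2 stood above all Tec libraries, and replicate 3 was at the Tec level. The log2 fold change was −0.88 (SE 0.44), and without Ang II replicate 3 it was −1.41. The fibroblast markers Col1a1, Col3a1, Dcn, Lum, Pdgfra and Postn showed the same split. Their summed FPKM were 700.1, 916.5 and 160.4 with Ang II and 133.7, 217.4 and 147.7 with Tec. The means of all 6 markers were lower with Tec, and none was at 0 in a library. Leukocyte markers were also highest in Ang II replicates 1 and 2, with sums of 26.4 and 34.5 against 13.0 to 15.8 in the other libraries. Smooth muscle markers (Myh11, Acta2, Tagln and Cnn1) summed to 134, 316 and 92.1 with Ang II and 49.9, 231 and 77.9 with Tec. Endothelial markers summed to 61.4 to 70.7 over all libraries. The part of any of these markers in the Fhl1 result was not tested. In bulk tissue, fewer cells of a type and less RNA per cell cannot be told apart.

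Csrp3, muscle LIM protein, is at chr7:48830398-48848033 on the minus strand (ENSMUSG00000030470). It was the most even of the 10, with 301.1, 292.1 and 311.3 FPKM with Ang II and 302.5, 267.5 and 255.5 with Tec. Its highest library was 1.22 times its lowest. The log2 fold change was −0.13 (SE 0.12), and 0.10 after scaling by the median of ratios, so its sign depended on the scaling. The ratio of Fhl2 to Csrp3 within a library is unchanged by any scaling factor applied to that library. It was 3.69, 3.12 and 2.93 with Ang II and 2.00, 1.76 and 2.25 with Tec. These ratios did not overlap. As Csrp3 was nearly level, this restates the Fhl2 difference and is no separate support for it.

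**Figure D2:**
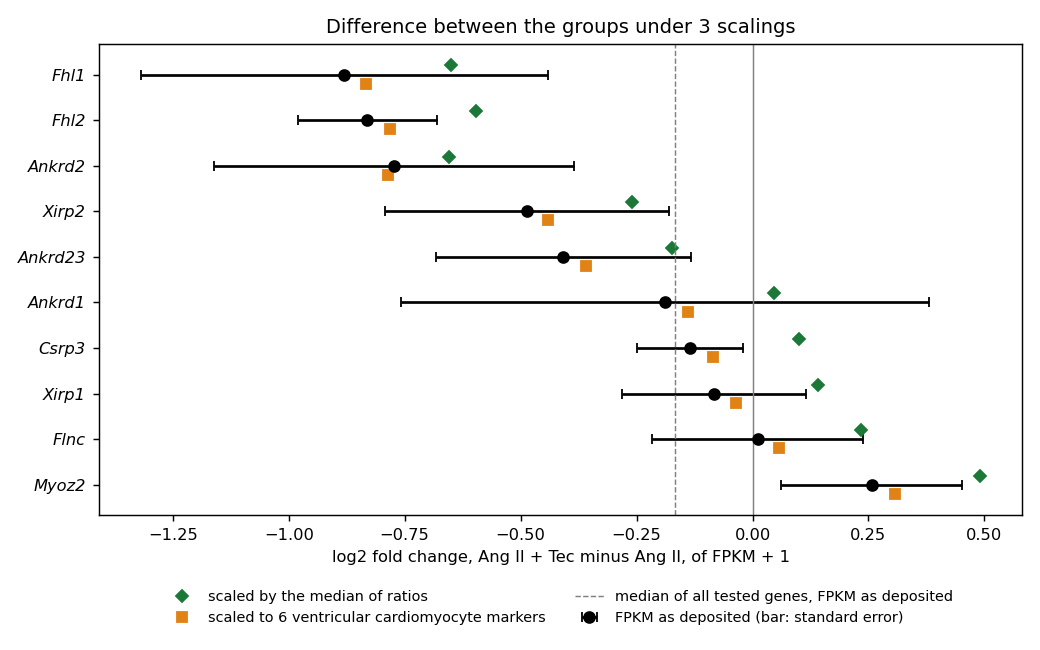
Log2 fold change (Ang II + Tec minus Ang II) of FPKM + 1 for the 10 genes, on the deposited scale with its standard error (black) and under 2 other scalings (green and orange). Fhl2 is at −0.83 and at −0.60 after scaling by the median of ratios, whereas Csrp3, Xirp1 and Ankrd1 change sign between these scales.

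The muscle ankyrin repeat proteins bind titin in the N2A region and can enter the nucleus. Ankrd1 (CARP), at chr19:36111961-36119910 on the minus strand (ENSMUSG00000024803), was the most variable of the abundant members. It read 732.6, 853.9 and 206.1 FPKM with Ang II and 602.2, 559.8 and 258.2 with Tec. Replicate 3 was the lowest library of each group, and the groups overlapped. The log2 fold change was −0.19 (SE 0.57). It was −0.83 when Ang II replicate 3 was left out and 0.20 when Ang II + Tec replicate 3 was. The same 2 libraries were lowest for Nppb, a natriuretic peptide of the stressed myocardium, with 136.6 FPKM in Ang II replicate 3 and 93.7 in Ang II + Tec replicate 3, against 438.1 to 1336.7 in the others. Nppb was singled out after its values were seen.

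Ankrd23 (DARP), at chr1:36530188-36536883 on the minus strand (ENSMUSG00000067653), read 160.9, 149.4 and 111.3 FPKM with Ang II and 152.6, 103.2 and 72.2 with Tec. The groups overlapped, with Ang II + Tec replicate 3 lowest. The log2 fold change was −0.41 (SE 0.28). Leaving out Ang II + Tec replicate 1 gave −0.68, with no overlap, and leaving out Ang II + Tec replicate 3 gave −0.14. An exon of Ankrd23 overlaps Gm42417 on the same strand, so its reads may be shared. Ankrd2, the family member best known from slow skeletal muscle, is at chr19:42036000-42045110 on the plus strand (ENSMUSG00000025172). It was near the floor, with 1.77, 1.91 and 0.10 FPKM with Ang II and 0.66, 0.07 and 0 with Tec. It passed the filter through only 3 libraries, and Ang II replicate 3 lay among the Tec values. The skeletal muscle markers Myh1, Myh2 and Actn3 were at 0 in at least 1 library, and the sum of 7 such markers was 8.86, 51.2 and 1.36 with Ang II and 15.6, 17.1 and 18.5 with Tec. Of the 7, Tnnt3 made up most of the highest sum (42.4 in Ang II replicate 2). The groups did not overlap for 2 of them, which were higher with Tec. Atp2a1 read 0.07 to 0.10 FPKM with Ang II and 6.30 to 7.51 with Tec, and Mylpf read 0.22 to 0.58 and 3.44 to 4.55. Their part in the members' values was not tested.

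**Figure D3:**
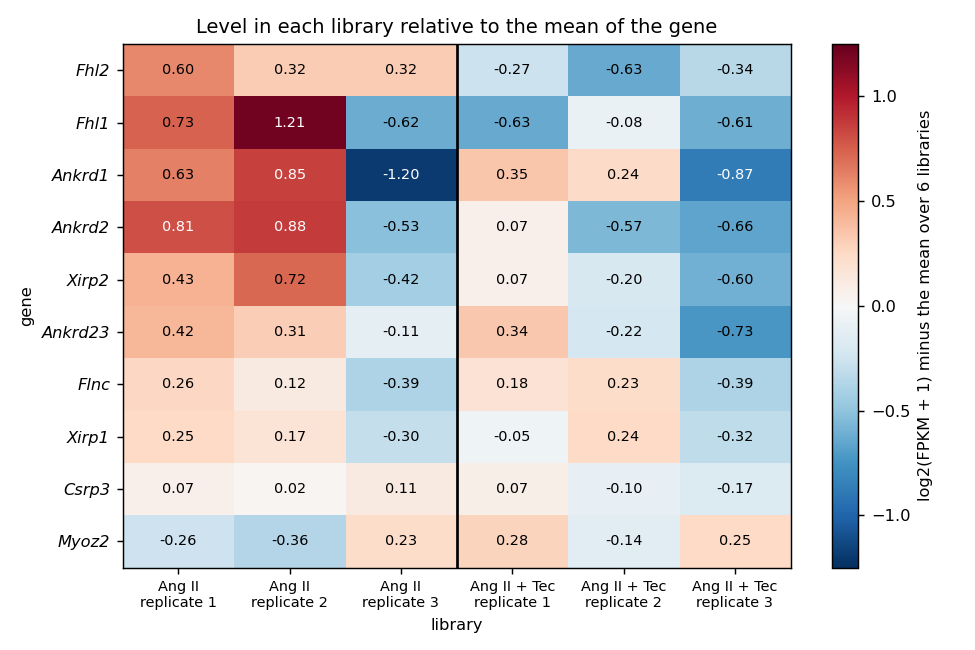
Level of each gene in each library as log2(FPKM + 1) minus the mean of that gene over the 6 libraries; rows are genes, columns are libraries and the line separates the groups. Fhl2 changes sign at the line, whereas Ankrd1 is lowest in replicate 3 of each group (−1.20 and −0.87) and Myoz2 runs the other way in Ang II replicates 1 and 2 (−0.26 and −0.36).

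The remaining 4 genes encode structural Z-disc and intercalated disc proteins. Xirp1 (Xin) and Xirp2 bind actin through Xin repeats, mainly at the intercalated disc. Xirp1, at chr9:120013755-120023598 on the minus strand (ENSMUSG00000079243), read 24.2, 22.9 and 16.3 FPKM with Ang II and 19.4, 24.1 and 16.03 with Tec. Its log2 fold change was −0.083 (SE 0.20), and its sign turned after scaling by the median of ratios (0.14) and by quantiles (0.16). Xirp2, at chr2:67173834-67526615 on the plus strand (ENSMUSG00000027022), read 30.3, 37.1 and 16.3 FPKM with Ang II and 23.3, 19.2 and 14.3 with Tec. Both Xirp genes were lowest in the third replicates. The Xirp2 log2 fold change was −0.49 (SE 0.31), with −0.82 when Ang II replicate 3 was left out and −0.25 when Ang II replicate 2 was. An exon of Xirp2 overlaps the antisense gene Gm13601, and the counting is not stated to use strand.

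Flnc, the muscle filamin that crosslinks actin at the Z-disc, is at chr6:29433256-29461883 on the plus strand (ENSMUSG00000068699). Its values were 18.8, 16.9 and 11.6 FPKM with Ang II and 17.7, 18.3 and 11.6 with Tec, almost the same set in both groups. Its log2 fold change was 0.011 (SE 0.23). Myoz2 (calsarcin-1), which links alpha-actinin to the phosphatase calcineurin, is at chr3:123006206-123035015 on the minus strand (ENSMUSG00000028116). It read 184.0, 170.8 and 258.8 FPKM with Ang II and 266.8, 199.9 and 260.9 with Tec. It was the abundant member with the higher mean with Tec (log2 fold change 0.26, SE 0.20), but Ang II replicate 3 reached the Tec level. The ratio of Fhl2 to Myoz2 was 6.03, 5.33 and 3.53 with Ang II and 2.26, 2.36 and 2.20 with Tec, without overlap. As the Fhl2 groups already did not overlap and the Myoz2 mean ran the other way, this ratio is no separate support for the Fhl2 difference.

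In order of level per length, Fhl2 stood first in both groups, followed by Ankrd1, Csrp3, Myoz2, Ankrd23 and Fhl1, with Xirp2, Xirp1 and Flnc at means of 15.8 to 27.9 FPKM and Ankrd2 last. With Ang II the Fhl2 range was apart from that of Ankrd1, and with Tec the ranges of these 2 genes overlapped. Ankrd1 overlapped Csrp3 in both groups, and with Tec Csrp3 overlapped Myoz2. With Ang II Fhl1 overlapped Xirp2, and Xirp2, Xirp1 and Flnc overlapped as neighbours in both groups. None of these neighbours was ordered beyond its spread. The Gene Ontology annotation in the table gave the term Z disc to 5 of the 10 members (Fhl2, Csrp3, Xirp2, Flnc and Myoz2).

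Several of these values rested on Ang II replicate 3. Without it, 6 of 10 members did not overlap, 5 lower and 1 higher with Tec. Of all genes tested 53.7% were then lower without overlap, and the share that was higher is not given here. In Ankrd1, Xirp1, Xirp2 and Flnc the 2 lowest libraries were the third replicates of both groups. In Fhl1, Ankrd1, Ankrd2 and Xirp2 the 2 highest libraries were Ang II replicates 1 and 2. The shares of all genes tested with these orders are not given here, so the orders are not read as traits of the members.

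**Figure D4:**
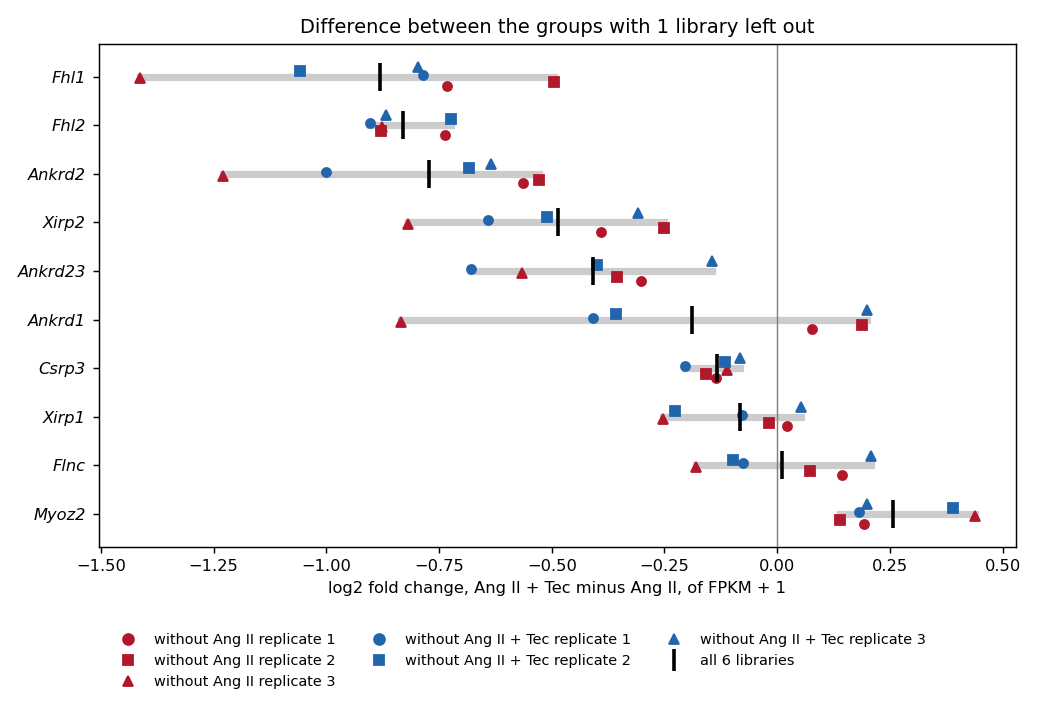
Log2 fold change of FPKM + 1 with 1 library left out; each colored symbol names the library removed, the grey bar is the range and the black tick is the value from all 6. Removing Ang II replicate 3 moves Fhl1 from −0.88 to −1.41 and Ankrd1 from −0.19 to −0.83, while Fhl2 stays between −0.90 and −0.72.

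Cell type markers were read beside the members. The label heart was borne out by 6 cardiomyocyte markers (Myl2, Myl3, Myh6, Tnni3, Tnnt2 and Actc1). Their sums of 8698 to 10714 FPKM with Ang II and 9211 to 10281 with Tec overlapped. The single markers were less even, and 3 of the 6 had lower means with Tec. Tnnt2 was lower without overlap (556.9 to 639.5 FPKM with Ang II, 456.5 to 505.4 with Tec), and 0 were higher without overlap. Scaled to the sum of the 6 markers, Fhl2 had a log2 fold change of −0.78 and its groups did not overlap. The 4 atrial markers Myl7, Myl4, Sln and Bmp10 summed to 636.7, 797.1 and 0.61 FPKM with Ang II and 0.29, 1568 and 2.62 with Tec, and Myl7, Sln and Bmp10 were at 0 in at least 1 library. Atrial transcripts were thus abundant in 3 of the 6 libraries and close to absent in the others, in both groups. Among the libraries with Myl7 above 300 FPKM (Ang II 1 and 2, Ang II + Tec 2) the log2 difference of Fhl2 was −1.09, against a single Tec library. Among those below 2 FPKM (Ang II 3, Ang II + Tec 1 and 3) it was −0.63. In this second set Fhl1 differed by 0.0047 and Ankrd1 by 0.93, each against a single Ang II library. Leukocyte markers summed to 15.8 to 34.5 FPKM with Ang II and 13.0 to 13.5 with Tec. Of these markers all 5 had lower means with Tec and 3 did not overlap. Their part in the members' values was not tested. The share of mitochondrial genes in the summed FPKM was 40.1 to 48.9% with Ang II and 49.6 to 52.5% with Tec.

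**Figure D5:**
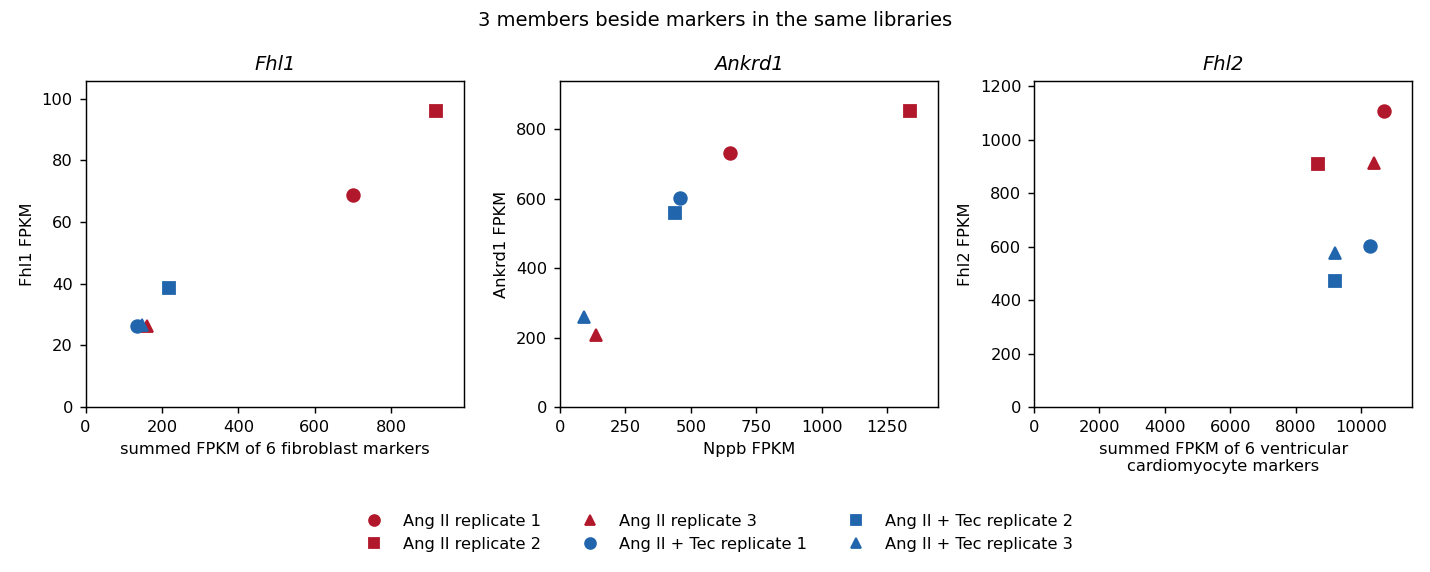
FPKM of Fhl1, Ankrd1 and Fhl2 in each library (y axis) against marker FPKM (x axis). From left to right these are the sum of 6 fibroblast markers, Nppb, and the sum of 6 cardiomyocyte markers (named ventricular on the axis). Fhl1 is high only in the 2 Ang II libraries with marker sums of 700.1 and 916.5, and the cardiomyocyte sums overlap between groups (8698 to 10714 and 9211 to 10281) where the Fhl2 values do not.

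Lists of genes from neighbouring structures were chosen by role, but with earlier results of these data known. Their counts and p-values are therefore given as descriptions. Of their genes, 0 were called by limma. At an unadjusted p under 0.05 there were 3 lower and 2 higher in Z-disc structure, and 2 and 2 among titin, its ligases and other muscle genes. There were 1 and 0 among paralogs, 0 and 1 among LIM adaptors, 1 and 0 in the costamere and 2 and 0 in the intercalated disc. The stretch response had 0 in either direction. Over all genes tested, 2439 (18.6%) had an unadjusted p under 0.05. Of 23 tested genes of Z-disc structure, 4 did not overlap and were lower with Tec (Palld, Pdlim5, Capzb and Capza2) and 1 was higher (Cmya5), with a median log2 fold change of −0.065, or 0.15 after median-of-ratios scaling. Actn2, the alpha-actinin that crosslinks actin there, had 226 ± 27.7 and 228.8 ± 32.7 FPKM. In the list of titin, its ligases and other muscle genes, 2 of 12 were lower (Smyd1 and Dysf) and 2 higher (Trim54 and Myom2). Trim54, a ligase of the sarcomere, had 59.3, 46.5 and 64.8 FPKM with Ang II and 86.6, 97.7 and 78.1 with Tec, a log2 fold change of 0.62 (SE 0.16, limma adjusted p = 0.201). None of the 5 tested paralogs of the members was separate (median −0.67, or −0.47 after median-of-ratios scaling). Csrp2, a paralog of Csrp3, read 32.2, 70.1 and 9.99 FPKM with Ang II and 4.16, 21.2 and 7.41 with Tec, a log2 fold change of −1.58 that did not pass the test (limma adjusted p = 0.294).

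Among LIM adaptors of focal adhesions, 2 of 13 genes did not overlap and were lower (Lims1 and Fblim1) and 1 was higher (Lims2). In the costamere and dystrophin complex 2 of 21 were lower (Itgb1bp2 and Itga7), and in the intercalated disc 1 of 13 was lower (Ctnna1) and 1 higher (Dsp). The medians of these lists were −0.23, −0.13 and −0.059, and after median-of-ratios scaling they were −0.003, 0.086 and 0.16. Des, desmin, the intermediate filament around the Z-disc, read 560.2, 702.0 and 360.7 FPKM with Ang II and 381.5, 309.3 and 319.0 with Tec (log2 fold change −0.64, limma adjusted p = 0.243). Of 20 tested genes of the stretch, YAP-TEAD and SRF response, none was separate (median −0.24, or −0.044 after median-of-ratios scaling). Nppa, atrial natriuretic peptide, ran from 255.6 to 9456 FPKM with Ang II and from 124.9 to 3489 with Tec. The named genes with the largest changes in the other lists were Pdlim3 (−0.78), Zyx (−0.42) and Ilk (−0.51), all with overlapping groups.

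For each member the gene with the most similar profile over the 6 libraries was sought among 5041 tested genes with a mean of at least 5 FPKM, by the root mean square difference of the centred log2 values. The closest to Fhl2 was Nmnat1 (0.114), an enzyme of NAD synthesis, with 5.99 to 7.25 FPKM with Ang II and 3.41 to 3.70 with Tec. The closest to Fhl1 was Anxa2 (0.071) and to Ankrd1 Tnfrsf12a (0.217), the receptor of TWEAK. Those of Csrp3, Xirp1 and Xirp2 were Gadd45gip1 (0.040), Rela (0.042) and Cygb (0.095). Ankrd2 had Rcan1 (0.150), Ankrd23 had Gm10177 (0.147), Flnc had Gm5884 (0.079) and Myoz2 had Gm44386 (0.050). Among members, Xirp1 and Flnc were the closest pair (0.109).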

How the data were processed

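RNA was extracted from hearts of 3 Ang II and 3 Ang II + Tec mice, poly(A)-selected and sequenced. The authors used Cutadapt for trimming and FastQC for quality control, and deposited an FPKM table of 30914 genes. The submitters' processing notes name Bowtie 0.12.2, HISAT2 2.0, StringTie 1.3.0 and mm8, without roles, yet the coordinates match GENCODE M21 on GRCm38 for 27947 of 30832 shared genes (90.6%). The depth of the libraries could not be settled from the FPKM, so counting intervals are not given. Linear models of log2(FPKM + 1) on group were fitted with limma 3.58.1 under R 4.3.3, using moderated variances with a trend, for genes reaching 0.5 FPKM in 3 or more libraries, with Benjamini-Hochberg adjustment. With 3 against 3, an exact permutation test cannot go below p = 0.1. The code was tested on simulated data. Members, lists and markers were chosen with earlier results of these data known. Named genes were all members, the largest change in each list at a mean FPKM of at least 5, the paralogs, the nearest profiles and marker sums; others were singled out later. Promoter sequences are from RefSeq. Alternatives changed pseudocount, filter, scaling, block, variance, weights and libraries.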

Additional observations from a re-analysis of the deposited data

How the results depend on the processing

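Alternatives kept the number of members called at 0 and not overlapping at 1, except those named here. Without the filter on low values 3 genes in all were called, against 21. With library weights, whose estimation stopped before convergence, 522 genes (3.99%), 1 member (Fhl1) and 4 list genes were called and the members' median was −0.72. Leaving out 1 library gave 2 to 557 genes called, 0 to 2 members called, 1 to 6 members not overlapping, 0 to 6 list genes called and a members' median between −0.69 and −0.11. Counts of members are descriptions, not tests, since the members were chosen with these values known. Each of the 6 libraries, when left out, moved the number of genes called by over 1.5 times. The extremes of 557, 2, 6, 6 and −0.69 came without Ang II replicate 3, where 4.26% of all genes were called and 53.7% were lower without overlap, and the median of −0.11 without Ang II + Tec replicate 3. Without Ang II + Tec replicate 1, 4 members did not overlap, all lower with Tec, and 4 genes were called. Without Ang II + Tec replicate 2, 2 members did not overlap, 1 lower and 1 higher, and 2 genes were called. Of all genes tested, 21.7% were lower without overlap in the first case and 44.3% in the second. The shares of all genes that were higher without overlap in these fits are not given here. Among libraries with Myl7 below 2 FPKM, an alternative chosen after seeing the data, the median was 0.070. The cause was not tested. With the replicate number as a replicate block, 22 genes were called and the median was −0.30. Correlations were −0.039, 0.429 and 0.379 between same-numbered samples and −0.435 to 0.226 between differently numbered ones. The labels state no pairing, and these values do not settle whether there was one, so the block is not treated as a pairing.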

Other observations

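The Gene Ontology term Z disc, which the table annotates for 131 genes that are not members, was examined after values were seen. Of 110 tested, 14 did not overlap and were lower with Tec, 4 did not overlap and were higher (Casq1, Fbxo32, Pygm and Trim54), and 0 were called by limma, with 13 lower and 6 higher at an unadjusted p under 0.05. The 14 included the calcium handling genes Sri and Casq2 and the membrane shaping genes Bin1 and Cav3. The 14 made up 12.7% of the genes tested with this term, against 18.9% of all genes tested. The median log2 fold change of the term was −0.15, against −0.17 for all genes tested, and it turned to 0.066 after median-of-ratios scaling, against 0.002. Fhl3, a paralog of Fhl1 and Fhl2, read 4.32, 3.97 and 1.72 FPKM with Ang II and 1.62, 1.48 and 1.77 with Tec, so that replicate 3 of the Ang II group again lay at the Tec level.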
